A study of Rattus norvegicus with 23 samples.

Results

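Chemokines are small secreted proteins that guide white blood cells, and the genes described here are the chemokines and chemokine receptors of rat liver. They were chosen by name: genes whose symbol begins as Ccl, Cxcl, Ccr or Cxcr followed by a digit, together with Xcl1, Xcr1, the Cx3c genes, the Ackr genes and Ccrl2, with at least 10 counts in total. By name 56 of the 28913 genes of the count table matched, and 55 had enough counts; Cxcr1 had 0 counts. After the filter on low counts 42 of the 55 could be tested among 15079 genes in all, and 13 could not.

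RNA came from whole liver of Sprague Dawley rats, in a series that models portosinusoidal vascular disease, in which the fine vessels of the liver are damaged without cirrhosis, and it was sequenced as 23 libraries. The 6 Control libraries came from rats without any treatment. The 7 LPS libraries came from rats fitted by surgery with a portal catheter, through which they received lipopolysaccharide, the endotoxin of Gram-negative bacteria, as boluses of 1 mg/kg, 2 in each of 8 weeks. Rats of the 10 Selfox libraries were kept for 8 weeks on a selenium-enriched diet and were given 8 weekly intravenous injections of oxaliplatin (3 mg/kg), 5-FU or fluorouracil (25 mg/kg) and folinic acid (45 mg/kg). No genotype other than the strain is given for any group. The Control rats had no catheter surgery, so surgery and LPS cannot be told apart, nor can the diet and the drugs in Selfox. The labels do not say that each library is a different rat, so the p-values measure the spread between libraries.

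A chemokine acts through receptors that span the cell membrane, couple to G proteins and turn a cell toward the source. Inflammatory chemokines are made on demand, in liver by macrophages, endothelium, stellate cells and hepatocytes, and bring neutrophils, monocytes and T cells out of the blood. Homeostatic chemokines hold lymphocytes, dendritic cells and stem cells in their places, and atypical receptors bind chemokines without the usual signalling. Many of the inflammatory chemokine genes are textbook targets of NF-kappaB and of interferon-gamma.

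Depth differed between groups, with 31.9 to 53.8 M (mega) counts per library for Control, 70.4 to 79.2 M for LPS and 65.1 to 74.8 M for Selfox. Levels are CPM, the counts of a gene per 1 M counts of its library, on library sizes scaled by the TMM method, and 3 counts, the number that a count of 0 still allows, equal 0.0605 to 0.094 CPM in Control, 0.0375 to 0.042 in LPS and 0.039 to 0.0451 in Selfox. Of the 55 genes 44 to 49 were detected per Control library, 47 to 51 per LPS library and 48 to 55 per Selfox library. The clock gene Dbp had more counts than Arntl in 5 libraries (Selfox 8, Control 55 and LPS 5, 6 and 7, called late-clock here), unlike in the others, and calls that end without them are given beside each result. Markers of hepatocytes (9 genes tested) summed to 153000 to 231000 CPM in Control, 116000 to 187000 in LPS and 129000 to 157000 in Selfox. As a sum, hepatocyte marker RNA was thus high in every library, which does not show the level of each gene. In whole tissue, fewer cells of a type and less RNA per cell cannot be told apart.

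In Selfox with Control most of the inflammatory chemokine ligands tested rose, though unevenly between libraries. Several receptors and macrophage or stromal ligands fell, at a share not far above that of all genes. By edgeR's quasi-likelihood test, adjusted over all genes tested at a threshold of 0.05, 16 of the 42 genes rose in Selfox with Control, or 38.1%, where 14.2% of all genes tested did so. The test called 8 of 42 lower, or 19%, against 14.9% of all genes. In either direction 24 of 42 passed (57.1%), beside 29.1% of all genes tested. The median log2 fold change of the 42 genes was 0.414, beside 0.011 for all genes tested. In Selfox with LPS 14 of 42 rose (33.3%, with 6.86% of all genes) and 8 fell (19%, with 7.64%), and the median was 0.274 beside 0.002. Without the late-clock libraries the numbers were 12 higher and 8 lower against Control, and 10 and 8 against LPS. The 16 and the 14 include Ccl12, which reached the filter's level in Selfox libraries only and so was bound to differ; without it 15 and 13 of 41 rose.

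LPS with Control gave few calls. There 2 of 42 genes rose, Ccl21 and Cxcl14, or 4.76% where 7.71% of all genes did. The test called 1 of 42 lower, 2.38% where 6.99% of all genes fell, and the median log2 fold change was -0.07 beside 0.006. None of the 42 had every LPS library above every Control library, as 1.83% of all genes did. For 1 of 42 every LPS library lay below every Control library, as for 1.81% of all genes. At an unadjusted p under 0.05 the number was 11 of 42 here, 25 for Selfox against Control and 28 for Selfox against LPS. The share of all genes at that threshold was not taken, so nothing is read from these counts. The 3 comparisons share their libraries pairwise, so their values are set side by side below and are not independent of each other.

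**Figure D1:**
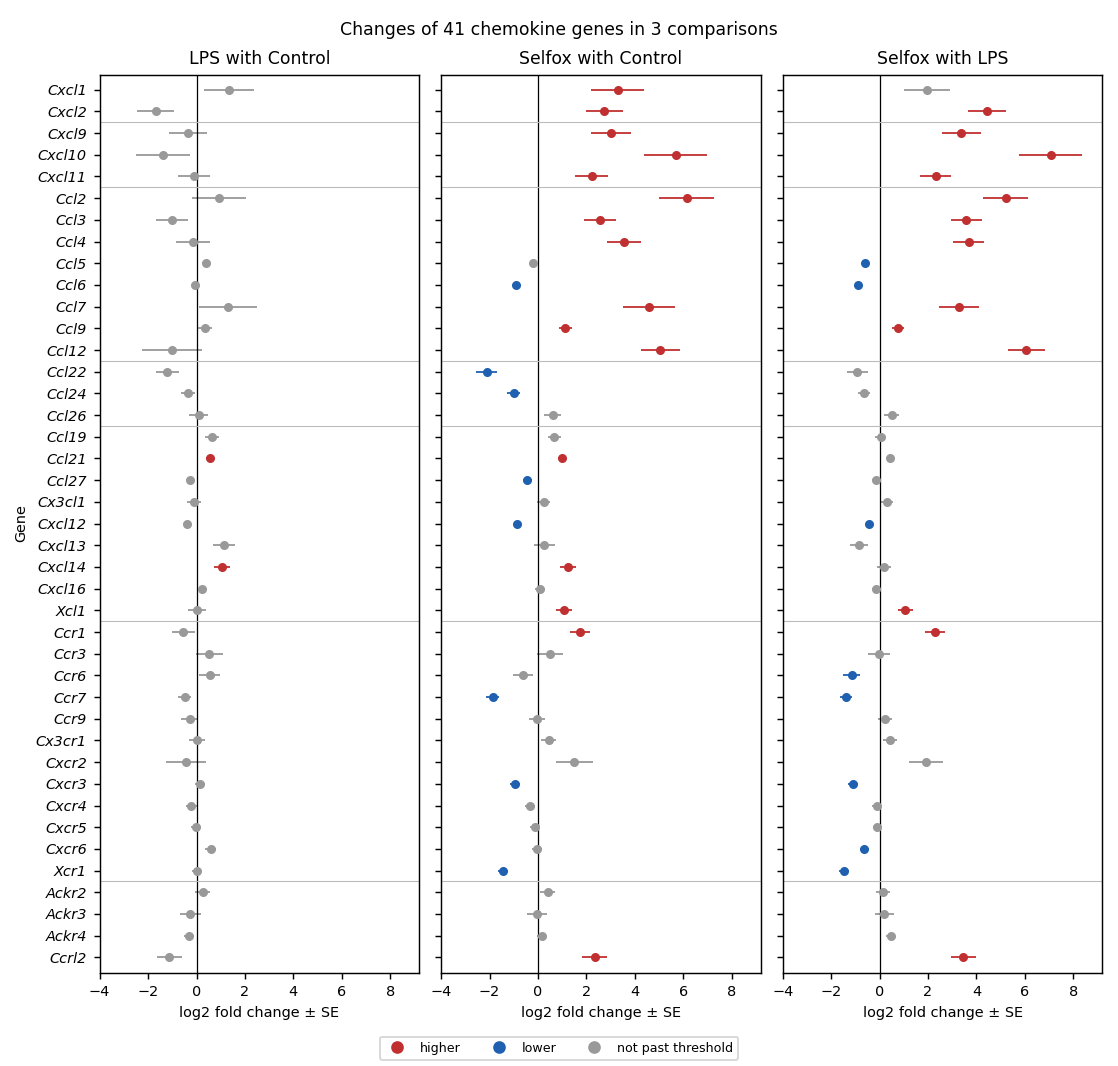
Log2 fold change with its standard error (x axis) of 41 of the 42 chemokine genes tested (y axis, grouped by role) in each of the 3 comparisons. Red points were called higher, blue points lower and grey points did not pass. In Selfox with Control red points take 11 of the 13 rows from Cxcl1 to Ccl12, with Ccl5 grey and Ccl6 blue. Ccl12 was tested only because of its Selfox counts. The LPS panel has 2 coloured points.

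The 3 ligands of Cxcr3, a receptor of activated T and NK cells, are Cxcl9, Cxcl10 and Cxcl11, and all 3 rose in Selfox against both other groups. Cxcl10, which interferons and NF-kappaB both induce, lay between 1.59 and 11.8 CPM in Control (median 4.77), between 0.937 and 3.53 in LPS (median 1.71) and between 3.41 and 1050 in Selfox (median 59.2). Selfox 8, Selfox 5 (709 CPM), Selfox 3 (622 CPM) and Selfox 4 (181 CPM) were high, Selfox 2 lay inside the Control range, and 6 of 10 Selfox libraries were above every Control. Its log2 fold change was 5.68 ± 1.3 (SE) in Selfox with Control (51.4-fold, adjusted p = 0.00267), 7.07 ± 1.3 in Selfox with LPS (adjusted p = 0.001) and -1.39 ± 1.12 in LPS with Control (adjusted p = 0.438).

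Cxcl9, the ligand most tied to interferon-gamma, ran from 15.8 to 30.1 CPM in Control (median 17.9), from 10.9 to 19.2 in LPS (median 15.2) and from 12.4 to 599 in Selfox (median 36.7). Control 41 held the Control maximum, apart from the other 5. The Selfox libraries spread to both sides of Control, 5 of 10 above its whole range and 3 of 10 below it. The change on the log2 scale was 3.01 ± 0.84 in Selfox with Control (adjusted p = 0.0106) and 3.37 ± 0.80 in Selfox with LPS (adjusted p = 0.0072). Cxcl11 showed a smaller rise of the same form. It ran from 11.1 to 15.7 CPM in Control (median 13.5), from 9.97 to 16.7 in LPS (median 12.5) and from 7.23 to 210 in Selfox (median 18.5), with 6 of 10 Selfox libraries above every Control. Its log2 fold change was 2.22 ± 0.68 in Selfox with Control (adjusted p = 0.0175) and 2.32 ± 0.64 in Selfox with LPS (adjusted p = 0.0169).

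Not every setting kept the calls of these ligands. With limma voom and sample weights Cxcl10 lost its call in Selfox with Control (log2 fold change 3.49, adjusted p = 0.0624), as did Cxcl9 (1.49, adjusted p = 0.101) and Cxcl11 (1.12, adjusted p = 0.154), and against LPS Cxcl11 lost its own (1.29, adjusted p = 0.113). Without the 5 late-clock libraries Cxcl9 stood at 2.45 (adjusted p = 0.0545) and Cxcl11 at 1.79 (adjusted p = 0.078) in Selfox with Control, and against LPS at 2.88 (adjusted p = 0.0953) and 1.98 (adjusted p = 0.142).

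The 3 genes lie next to one another on chromosome 14 in the order Cxcl11, Cxcl10, Cxcl9, with no other protein-coding gene between them in RefSeq's GRCr8 annotation. Their upstream sequences are shown because the genes rose together. Each is the 250 bases before the RefSeq start of the gene in GRCr8, read 5′ to 3′ on the gene's own strand, the plus strand here, with coordinates of chr14:15988816-15989065 for Cxcl10, chr14:15973478-15973727 for Cxcl11 and chr14:16006916-16007165 for Cxcl9. Capitals mark matches on either strand to a kappaB motif (GGGA, then 2 bases of any kind, then TTCC or TCCC) or to the core of the interferon-stimulated response element (GAAA, 2 bases of any kind, GAAA).
Cxcl10: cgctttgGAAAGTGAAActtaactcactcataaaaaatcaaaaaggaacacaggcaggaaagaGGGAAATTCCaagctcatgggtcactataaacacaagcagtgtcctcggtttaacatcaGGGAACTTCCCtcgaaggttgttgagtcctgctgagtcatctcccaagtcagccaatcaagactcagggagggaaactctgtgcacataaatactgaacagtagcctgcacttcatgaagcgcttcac
Cxcl11: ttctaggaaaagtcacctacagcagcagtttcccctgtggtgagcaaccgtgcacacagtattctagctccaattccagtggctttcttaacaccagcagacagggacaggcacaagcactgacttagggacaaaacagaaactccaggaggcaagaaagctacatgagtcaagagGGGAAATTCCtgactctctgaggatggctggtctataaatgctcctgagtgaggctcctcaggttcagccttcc
Cxcl9: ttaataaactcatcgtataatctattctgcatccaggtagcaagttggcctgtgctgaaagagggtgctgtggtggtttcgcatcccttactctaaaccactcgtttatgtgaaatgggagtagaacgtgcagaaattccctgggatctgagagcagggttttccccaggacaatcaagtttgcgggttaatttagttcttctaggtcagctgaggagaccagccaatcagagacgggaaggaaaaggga
The Cxcl10 stretch holds GAAAGTGAAA from 243 to 234 bases before the start, GGGAAATTCC from 187 to 178 and GGGAACTTCC from 128 to 119; a match on the other strand overlaps the last from 127 to 118. Cxcl11 holds GGGAAATTCC from 74 to 65 bases before its start. Cxcl9 has no match in this window, which says only that these letters are not there.

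Cxcl1 and Cxcl2, ligands of Cxcr2 that attract neutrophils, both rose in Selfox with Control, and Cxcl2 rose in Selfox with LPS too. Cxcl1 ran from 3.21 to 85.9 CPM in Control (median 13), from 5.51 to 124 in LPS (median 63.9) and from 9.33 to 668 in Selfox (median 187). The groups overlapped widely: Control 40 held the Control maximum, and 5 of 10 Selfox libraries were above it. On the log2 scale the change was 3.29 ± 1.09 in Selfox with Control (adjusted p = 0.0279), 1.94 ± 0.95 in Selfox with LPS (adjusted p = 0.187) and 1.34 ± 1.04 in LPS with Control (adjusted p = 0.416). The Cxcl1 call in Selfox with Control ended without the late-clock libraries (2.85, adjusted p = 0.0842) and without Control 41, 49, 52 or 55 (adjusted p up to 0.0584).

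Cxcl2 ran from 0.949 to 14.1 CPM in Control (median 1.57), from 0.588 to 3.39 in LPS (median 1.18) and from 2.03 to 82 in Selfox (median 17.3). Control 40 and Control 46 (10 CPM) were high among Control, 7 of 10 Selfox libraries lay above all Control, and 9 of 10 lay above all LPS. The log2 fold change was 2.74 ± 0.77 in Selfox with Control (adjusted p = 0.0112) and 4.43 ± 0.80 in Selfox with LPS (adjusted p = 0.000806), and it kept both calls in every setting tried. LPS with Control gave -1.69 ± 0.78 (adjusted p = 0.154).

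The other genes of this kind had too few counts to test. Cxcl3 summed to 2 counts over the 6 Control libraries, to 12 over the 7 of LPS and to 276 over the 10 Selfox libraries, of which Selfox 3 held 118 and Selfox 8 held 106. Cxcl6 summed to 8, 30 and 115 counts in the same order, with 41 in Selfox 3 and 26 in Selfox 8. Cxcl1, Cxcl2 and Cxcl3 are close copies of each other, and how the authors' counting treated reads that match several genes is not given in the sources used here; counts may be split among them. The same question applies to Ccl2, Ccl7 and Ccl12 and to Ccl3 and Ccl4 below, whose sequences were not compared here.

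Cxcl2 and Cxcl1 also neighbour each other on chromosome 14, and their 250 bases before the start are shown for comparison with Cxcl10 and Cxcl11. Both are on the minus strand of GRCr8, at chr14:17479322-17479571 for Cxcl1 and chr14:17467256-17467505 for Cxcl2, and capitals again mark the kappaB matches.
Cxcl1: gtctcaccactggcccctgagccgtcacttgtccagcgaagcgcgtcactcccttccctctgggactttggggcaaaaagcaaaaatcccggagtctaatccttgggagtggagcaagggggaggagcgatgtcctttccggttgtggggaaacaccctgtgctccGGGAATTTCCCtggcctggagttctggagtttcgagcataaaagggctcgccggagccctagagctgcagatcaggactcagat
Cxcl2: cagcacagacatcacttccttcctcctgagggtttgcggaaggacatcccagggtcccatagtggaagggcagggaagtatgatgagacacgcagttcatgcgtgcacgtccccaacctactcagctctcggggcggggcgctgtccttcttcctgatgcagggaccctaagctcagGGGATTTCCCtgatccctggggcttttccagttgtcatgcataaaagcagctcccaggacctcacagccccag
Cxcl1 holds GGGAATTTCC from 84 to 75 bases before the start, overlapped by a match on the other strand from 83 to 74, and Cxcl2 holds GGGATTTCCC from 73 to 64. RefSeq promoter windows, each of the 250 bases before and the first 50 after a start, were found for 42 of the 55 genes. A kappaB match was present in 7 of the 42 (Ccl7, Ccr3, Cxcl1, Cxcl10, Cxcl11, Cxcl2 and Cxcl6) and in 681 of 33469 windows of all genes, or 2.03%. Among genes that rose in Selfox with Control 5 of 13 with a window had one, among those that fell 0 of 7, and among those tested and not called 1 of 14. Ccl2, Ccl3 and Ccl4 rose too but had no window. The interferon-response motif was found in 2 of the 42, Cxcl10 and Ccl19, and in 3.92% of all windows. In the same order as above it was in 1 of 13, 0 of 7 and 1 of 14. Each of the 42 was counted with 1 window, while the 33469 were not reduced to 1 per gene. A link of either motif to the rises was not tested.

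The inflammatory CC ligands attract monocytes, macrophages and T cells. In Selfox with Control 6 of 8 tested rose (Ccl2, Ccl3, Ccl4, Ccl7, Ccl9 and Ccl12), where 14.2% of all genes tested did. The 6 include Ccl12, which reached the filter's level in Selfox libraries only and so was bound to differ. The same comparison lowered Ccl6, and Ccl5 was not called. Ccl2, the main monocyte attractant, ran from 0.154 to 1.13 CPM in Control (median 0.25), from 0.277 to 2.04 in LPS (median 0.75) and from 0.923 to 98 in Selfox (median 14.7). Selfox 7 alone lay inside the Control range, so 9 of 10 Selfox libraries were above all Control. Its log2 fold change was 6.13 ± 1.12 in Selfox with Control (69.9-fold, adjusted p = 0.000414), 5.20 ± 0.94 in Selfox with LPS (adjusted p = 0.00085) and 0.93 ± 1.11 in LPS with Control (adjusted p = 0.623).

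Ccl12, a monocyte attractant close in sequence to Ccl2, was near the detection floor outside Selfox, with 0 to 0.0807 CPM in Control (median 0.0128) and 0 to 0.0551 in LPS (median 0), against 0.108 to 2.67 in Selfox (median 1.03). All 10 Selfox libraries stood above every Control and every LPS library, as 2.37% of all genes tested did against Control and 0.743% against LPS. It passed the filter through Selfox alone, with 9 Selfox libraries and 0 of the others at the 0.137 CPM that the filter asked of 6 libraries, so this separation and its calls are given as a description and nothing is read from them. A fitted fold change would depend on the prior count at such low Control levels and is not given. Ccl7, another monocyte attractant, ran from 0 to 0.166 CPM in Control (median 0.0873), from 0.111 to 0.331 in LPS (median 0.207) and from 0.052 to 6.41 in Selfox (median 0.735). Selfox 3 was highest and 8 of 10 Selfox libraries were above all Control, with a log2 fold change of 4.59 ± 1.07 (adjusted p = 0.00293). Ccl7 was near the floor of 3 counts in Control, where 1 library reached the filter's level, so the size of that fold change is uncertain. In Selfox with LPS Ccl7 stood at 3.29 ± 0.83 (adjusted p = 0.00976).

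Limma voom with sample weights ended the calls of Ccl2 (5.1, adjusted p = 0.0968) and Ccl7 (3.23, adjusted p = 0.123) in Selfox with Control, and against LPS those of Ccl2 (4.14, adjusted p = 0.0529) and Ccl7 (1.77, adjusted p = 0.25). Ccl7 also lost its call in Selfox with LPS without the late-clock libraries (2.96, adjusted p = 0.11).

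Ccl3 and Ccl4, which activated macrophages and T cells release, both rose in Selfox. Ccl3 ran from 0.525 to 7.32 CPM in Control (median 1.02), from 0.728 to 1.67 in LPS (median 1.32) and from 1.65 to 37.3 in Selfox (median 11.6). Its log2 fold change was 2.56 ± 0.65 in Selfox with Control (adjusted p = 0.00573) and 3.58 ± 0.64 in Selfox with LPS (adjusted p = 0.000783). Ccl4 ran from 0.76 to 3.17 CPM in Control (median 0.862), from 0.832 to 2.55 in LPS (median 1.28) and from 1.33 to 39.5 in Selfox (median 14.3), at 3.54 ± 0.70 (adjusted p = 0.000808) and 3.68 ± 0.65 (adjusted p = 0.000629). Control 40 was the highest Control library for both genes; 6 of 10 Selfox libraries exceeded it for Ccl3 and 8 of 10 for Ccl4.

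Ccl9, a ligand of Ccr1 in rodents, was already at 253 to 334 CPM in Control (median 303), with 319 to 446 in LPS (median 380) and 315 to 1320 in Selfox (median 454). Selfox 8, Selfox 5 (1110 CPM) and Selfox 3 (973 CPM) were the highest, and 9 of 10 Selfox libraries exceeded all Control. The rise was 1.13 ± 0.28 in Selfox with Control (2.18-fold, adjusted p = 0.00392) and 0.76 ± 0.26 in Selfox with LPS (adjusted p = 0.0495). The latter call ended in 11 of 17 fits that each left out 1 library (any of the 7 LPS libraries and Selfox 3, 4, 5 and 8, with an adjusted p of up to 0.0903), and without the late-clock libraries (0.58, adjusted p = 0.245). It ended too without the low-count filter, with voom, with 2 groups alone and at equal depth.

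**Figure D2:**
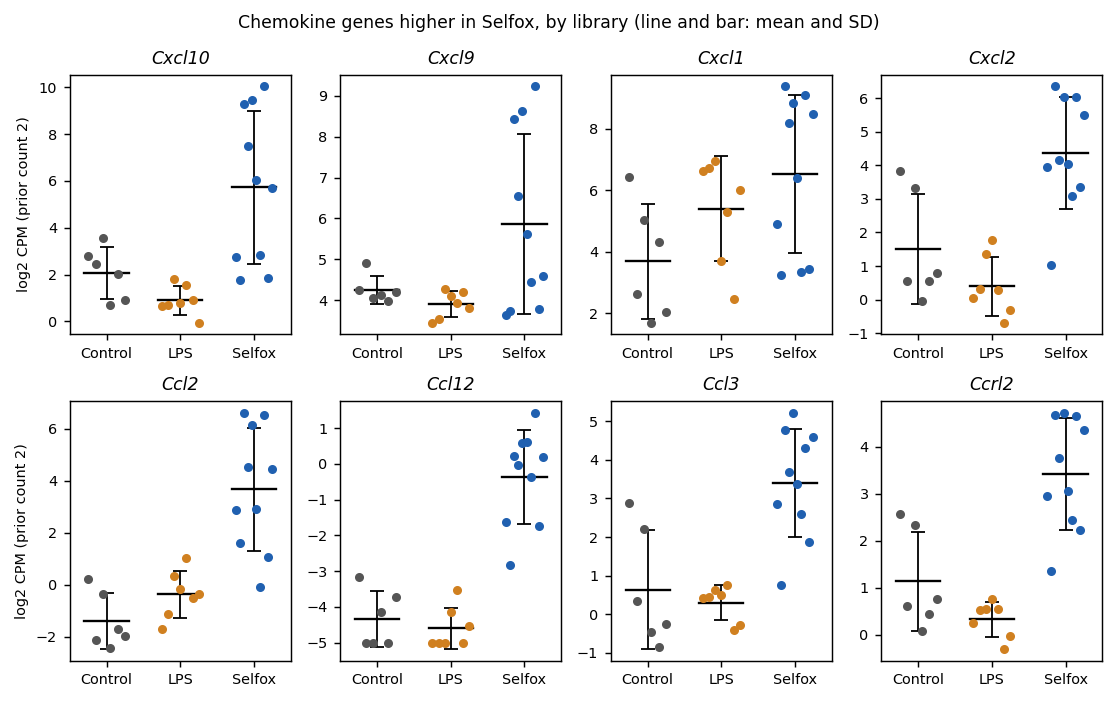
Log2 CPM with a prior count of 2 (y axis) of 8 genes that rose in Selfox with Control, by group (x axis); each point is 1 library, and the line and bar give the mean and SD over 6 Control, 7 LPS and 10 Selfox libraries. Selfox points spread over several log2 units, and of the 8 genes Ccl12, tested only because of its Selfox counts, has all 10 above the Control points.

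The 10 Selfox libraries did not share the rise equally. Of the 16 genes that rose in Selfox with Control, 16 were above every Control library in Selfox 3, Selfox 5 and Selfox 8, 15 in Selfox 4 and Selfox 10, 12 in Selfox 6, 9 in Selfox 1, and 6 in each of Selfox 2, Selfox 7 and Selfox 9. In the LPS libraries 3 to 5 of the 16 were. The median log2 difference of the 16 from the Control mean was 4.46 in Selfox 5, 4.25 in Selfox 8 and 4.16 in Selfox 3, against 0.15 in Selfox 2 and 0.93 in Selfox 9. The highest Selfox value of a gene was in Selfox 3 for 6 genes, in Selfox 8 for 6, in Selfox 5 for 3 and in Selfox 9 for 1. This description uses the genes chosen for their rise in these libraries, so it carries no test. Ccl12, which reached the filter's level in Selfox libraries only, is among the 16.

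Neutrophil markers and NF-kappaB genes were highest in the same 5 libraries, Selfox 3, 4, 5, 8 and 10. In Selfox 6 the NF-kappaB sum (472 CPM) was above every Control library and the neutrophil sum (11.6 CPM) was not. The summed level of the neutrophil markers was 5.55 to 14.8 CPM in Control and 4.56 to 13.7 in LPS. In Selfox it was 128 CPM in Selfox 3, 92.2 in Selfox 8, 56.3 in Selfox 5, 37.8 in Selfox 4 and 36.4 in Selfox 10, and 6.02 to 11.6 in the other 5 libraries. Of the 8 neutrophil markers tested 5 rose and 0 fell in Selfox with Control, among them the granule collagenase Mmp8 (3.24 ± 0.98, adjusted p = 0.0162) and the calcium-binding S100a9 (2.3 ± 0.71, adjusted p = 0.0188). The granule genes Mpo, Elane and Np4 were too low to test, and Ltf was at 0 in every library. The part of neutrophils in the chemokine rises was not tested.

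**Figure D3:**
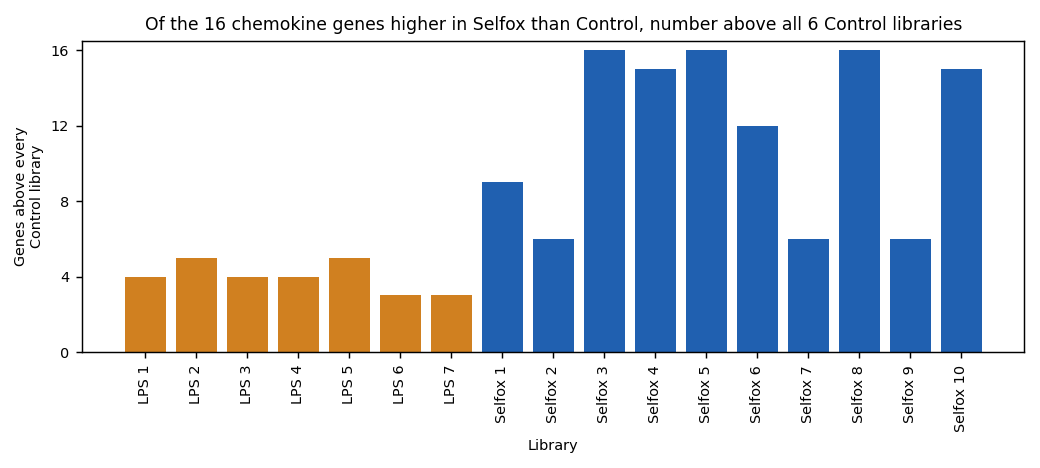
Number of the 16 genes higher in Selfox with Control that lay above all 6 Control libraries (y axis, out of 16) in each LPS (orange) and Selfox (blue) library (x axis). Selfox 3, 5 and 8 reach 16, Selfox 2, 7 and 9 reach 6, and LPS libraries 3 to 5. The 16 include Ccl12, tested only because of its Selfox counts.

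Falls in Selfox were smaller and more even from library to library. Of the 8 genes that fell in Selfox with Control, 6 or 7 were below every Control library in each of the 10 Selfox libraries. The 8 were chosen for their fall in these same libraries, so this description carries no test. For Ccl22, Ccl6, Ccr7 and Xcr1 all 10 Selfox libraries lay below all Control, which 2.55% of all genes tested did. For Ccl6, Ccr7 and Xcr1 they lay below all LPS libraries too (1% of all genes tested).

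Ccl6, a CC ligand of rodent myeloid cells, ran from 126 to 141 CPM in Control (median 135), from 93.7 to 171 in LPS (median 141) and from 50.6 to 86.8 in Selfox (median 74.8). The Selfox libraries formed a separate lower band. The fitted log2 fold change was -0.92 ± 0.13 in Selfox with Control (adjusted p = 2.54e-05) and -0.88 ± 0.12 in Selfox with LPS (adjusted p = 6.05e-05). Ccl6 lies between Ccl9 and Ccl3 in the run Ccl5, Ccl9, Ccl6, Ccl3, Ccl4 of GRCr8, which has no other protein-coding gene within it, and its neighbours Ccl9, Ccl3 and Ccl4 rose in the same comparison.

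Ccl24, an eosinophil attractant made by macrophages, ran from 5.32 to 13.6 CPM in Control (median 11.2), from 2.84 to 13 in LPS (median 9.62) and from 2.75 to 8.29 in Selfox (median 5.37). It fell in Selfox with Control (-1.01 ± 0.28, adjusted p = 0.00853), with 5 of 10 Selfox libraries below all Control, and was not called in Selfox with LPS (-0.65 ± 0.26, adjusted p = 0.102). Ccl22, a ligand of Ccr4 made by dendritic cells and macrophages, was low: 0.308 to 1.23 CPM in Control (median 0.45), 0.0277 to 0.476 in LPS (median 0.275) and 0.027 to 0.216 in Selfox (median 0.139). Its log2 fold change was -2.12 ± 0.43 in Selfox with Control (adjusted p = 0.000882), -0.92 ± 0.42 in Selfox with LPS (adjusted p = 0.152) and -1.20 ± 0.46 in LPS with Control (adjusted p = 0.0796). With limma voom Ccl22 passed in LPS with Control as well (-1.85, adjusted p = 0.00866).

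Markers of Kupffer cells, the macrophages of the liver, were lower in Selfox too. All 11 Kupffer cell markers tested fell in Selfox against Control and all 11 against LPS, among them the scavenger receptor Marco (-2.94 ± 0.14, adjusted p = 7.7e-13) and the complement receptor Vsig4 (-2.03 ± 0.12, adjusted p = 1.39e-10) in the first. Their summed level was 788 to 1070 CPM in Control, 681 to 1050 in LPS and 285 to 445 in Selfox, without overlap. Against Control, LPS raised 1 of the 11, Adgre1 (0.68 ± 0.18, adjusted p = 0.0132). Of 7 monocyte markers 1 fell in Selfox with Control, the macrophage growth factor receptor Csf1r, which is also on the Kupffer cell list. The part of the macrophage markers in the falls of Ccl6, Ccl22 and Ccl24 was not tested.

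Cxcl12 holds blood stem cells and lymphocytes in place through Cxcr4 and is made by stromal and endothelial cells. Its level ran from 263 to 450 CPM in Control (median 337), from 208 to 301 in LPS (median 272) and from 147 to 305 in Selfox (median 172). All Selfox libraries except Selfox 9 were below every Control. It fell in Selfox against Control (-0.86 ± 0.14, adjusted p = 9.74e-05) and against LPS (-0.45 ± 0.13, adjusted p = 0.0234), and stood at -0.41 ± 0.15 in LPS with Control (adjusted p = 0.0678). The Selfox with LPS call ended without the late-clock libraries (-0.31, adjusted p = 0.23) and without LPS 5 (adjusted p = 0.0533), while LPS with Control passed with DESeq2, with voom, in the fit of 2 groups alone and without the late-clock libraries (-0.41 to -0.59, adjusted p from 0.0123 to 0.0482), and without Control 55 (-0.47, adjusted p = 0.0326). Its receptor Cxcr4 was not called in any comparison (-0.33 ± 0.20 in Selfox with Control, adjusted p = 0.227), nor was Ackr3, which binds and removes Cxcl12 (-0.06 ± 0.41, adjusted p = 0.928), although Ackr3 varied from 4.34 to 35.7 CPM among Selfox libraries.

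Among stromal and endothelial markers the lists split. In Selfox with Control 4 of 11 stellate cell markers rose and 2 fell, with Acta2, a smooth muscle actin, at 1.29 ± 0.16 (adjusted p = 6.02e-06), and of 11 sinusoidal endothelial markers 1 rose (Kdr) and 2 fell. The summed endothelial level was 475 to 567 CPM in Control, 262 to 528 in LPS and 451 to 573 in Selfox.

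Among the homeostatic and other ligands 3 of 9 tested rose in Selfox with Control, namely Ccl21, Cxcl14 and Xcl1. Of the same 9, 2 fell, Ccl27 and Cxcl12. Of all genes tested 14.2% rose and 14.9% fell. Ccl21 and Cxcl14 also rose in LPS with Control. Ccl21, made by lymphatic endothelium and lymphoid stroma, ran from 2.24 to 3.89 CPM in Control (median 2.98), from 3.64 to 5.69 in LPS (median 4.37) and from 3.8 to 9.37 in Selfox (median 5.25). In LPS 5 of 7 libraries and in Selfox 9 of 10 exceeded every Control. The log2 change was 0.97 ± 0.16 in Selfox with Control (adjusted p = 0.000142), 0.56 ± 0.17 in LPS with Control (adjusted p = 0.0286) and 0.41 ± 0.15 in Selfox with LPS (adjusted p = 0.0645). The LPS call ended without Control 41, Control 49, Control 52 or LPS 4 (0.49 to 0.66 over all fits that left out 1 library, adjusted p up to 0.0742), and without the late-clock libraries (0.59, adjusted p = 0.0802).

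Cxcl14, a ligand of epithelium and stroma, ran from 0.336 to 0.849 CPM in Control (median 0.546), from 0.612 to 2.2 in LPS (median 1.11) and from 0.846 to 3.19 in Selfox (median 1.17). Above every Control were 6 of 7 LPS and 9 of 10 Selfox libraries. It rose by 1.23 ± 0.32 on the log2 scale in Selfox with Control (adjusted p = 0.0057) and by 1.05 ± 0.33 in LPS with Control (adjusted p = 0.0369), and the difference between Selfox and LPS was 0.18 ± 0.27 (adjusted p = 0.722). The LPS call ended in 7 of 13 fits that each left out 1 library (Control 41, 46, 49 or 52 or LPS 4, 5 or 7, adjusted p up to 0.0919), without the late-clock libraries (0.96, adjusted p = 0.1) and at equal depth (0.93, adjusted p = 0.0702).

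Ccl19, which shares the receptor Ccr7 with Ccl21, was not called: it stood at 0.67 ± 0.26 in Selfox with Control (adjusted p = 0.0587) and 0.64 ± 0.28 in LPS with Control (adjusted p = 0.13). In Selfox with Control it passed with DESeq2, with voom and without Control 40, Control 49 or Selfox 5. Ccl27, a skin-homing ligand, passed in Selfox with Control by a small margin (-0.44 ± 0.17, adjusted p = 0.04998), with 0 of 10 Selfox libraries below all Control. That call ended in 12 of 16 fits that each left out 1 library, all but those of Control 55 and Selfox 1, 2 and 7 (adjusted p up to 0.158). It also ended with RLE factors, without the low-count filter and with 2 groups alone. Equal depth and counts divided by 2 ended it too (adjusted p up to 0.179 over these settings). Control 55 (0.469 CPM) lay apart below the other Control libraries. Cxcl13, the B cell attractant, was at 0.221 to 0.627 CPM in Control (median 0.3), 0.25 to 1.2 in LPS (median 0.834) and 0.085 to 1.11 in Selfox (median 0.312), and did not pass (1.13 ± 0.45 in LPS with Control, adjusted p = 0.0975). Cxcl16 and Cx3cl1, both made as membrane-bound proteins, were within 0.32 of 0 on the log2 scale in all 3 comparisons and were not called. Ccl26 was not called either (0.6 ± 0.35 in Selfox with Control, adjusted p = 0.211).

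Xcl1 and its only known receptor Xcr1 moved in opposite directions. Xcl1, released by NK cells and activated T cells, ran from 0.154 to 0.564 CPM in Control (median 0.306), from 0.168 to 0.551 in LPS (median 0.308) and from 0.257 to 1.33 in Selfox (median 0.641). The highest was Selfox 8, and 6 of 10 Selfox libraries were above all Control. It rose by 1.07 ± 0.34 on the log2 scale in Selfox with Control (adjusted p = 0.0205) and by 1.05 ± 0.31 in Selfox with LPS (adjusted p = 0.0225). The first call ended without the late-clock libraries (0.78, adjusted p = 0.0707) and without Control 49 (adjusted p = 0.0588), and the second without LPS 2 (adjusted p = 0.0533).

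Xcr1, the receptor that marks cross-presenting dendritic cells, ran from 1.44 to 2.82 CPM in Control (median 1.87), from 1.66 to 2.34 in LPS (median 2.06) and from 0.364 to 1.1 in Selfox (median 0.779). Every Selfox library was below every Control and LPS library. The log2 fold change was -1.45 ± 0.20 in Selfox with Control (adjusted p = 1.82e-05), -1.47 ± 0.19 in Selfox with LPS (adjusted p = 1.42e-05) and 0.02 ± 0.21 in LPS with Control (adjusted p = 0.958). Of 8 other dendritic cell markers 3 fell and 1 rose in Selfox with Control. Clec9a, found on the same dendritic cells as Xcr1, fell by 0.72 ± 0.12 (adjusted p = 0.000127), and Cd83, an activation marker, rose by 1.74 ± 0.32 (adjusted p = 0.000397). Their summed level, 20 to 26.8 CPM in Control, 17.6 to 27 in LPS and 22.4 to 56.5 in Selfox, overlapped between groups.

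Ccr7 guides mature dendritic cells and naive T cells toward Ccl19 and Ccl21. It ran from 0.538 to 1.22 CPM in Control (median 0.903), from 0.444 to 0.995 in LPS (median 0.658) and from 0.127 to 0.396 in Selfox (median 0.262). All Selfox values were below all others, with a log2 fold change of -1.87 ± 0.26 in Selfox with Control (adjusted p = 2.36e-05) and -1.38 ± 0.25 in Selfox with LPS (adjusted p = 0.000577). Its ligand Ccl21 rose in Selfox with Control, as given above.

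Cxcr3 fell in both comparisons in which its 3 ligands rose. It ran from 0.564 to 0.948 CPM in Control (median 0.797), from 0.622 to 1.05 in LPS (median 0.834) and from 0.219 to 0.649 in Selfox (median 0.405). Selfox 2 alone overlapped the Control and LPS ranges. The log2 change was -0.96 ± 0.20 in Selfox with Control (adjusted p = 0.00107) and -1.10 ± 0.19 in Selfox with LPS (adjusted p = 0.000384).

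Cxcr6 and Ccr6 were called in Selfox with LPS, and in Selfox with Control they stood at -0.05 ± 0.21 (adjusted p = 0.89) and -0.62 ± 0.43 (adjusted p = 0.299). Cxcr6, a receptor of liver-resident T and NK cells, ran from 0.606 to 1.19 CPM in LPS (median 0.89) and from 0.383 to 0.729 in Selfox (median 0.627), with 4 of 10 Selfox libraries below all LPS (-0.63 ± 0.18, adjusted p = 0.0228, and up to 0.0606 without LPS 2 or LPS 4). With only LPS and Selfox libraries 1 to 7 the Cxcr6 call ended too (adjusted p up to 0.147). Ccr6, the receptor of Ccl20, fell by 1.16 ± 0.37 on the log2 scale (adjusted p = 0.0343), with 0 of 10 Selfox libraries (0.0274 to 0.18 CPM) below all LPS (0.025 to 0.345 CPM), and its call ended in 8 of 17 fits that each left out 1 library (LPS 4 to 6 and Selfox 3, 4, 6, 7 and 8, with an adjusted p of up to 0.0915). The Ccr6 call ended too without the low-count filter and with voom (adjusted p up to 0.136 over the alternatives). LPS 7 lay apart at the bottom of the LPS range of Ccr6, under the floor of 3 counts. The ligand Ccl5, which T and NK cells make in quantity, fell in the same comparison: it ran from 4.49 to 7.22 CPM in LPS (median 5.74) and from 2.48 to 5.04 in Selfox (median 3.7), with 7 of 10 Selfox libraries below all LPS (-0.60 ± 0.13, adjusted p = 0.00255). Against Control, Ccl5 stood at -0.21 ± 0.14 (adjusted p = 0.26).

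Some lymphocyte markers were lower in Selfox too. Of 17 T and NK cell markers 0 rose and 5 fell in Selfox with Control, 0 rose and 12 fell in Selfox with LPS, and 2 rose in LPS with Control. Their summed level was 20.4 to 27.1 CPM in Control, 23.5 to 36.2 in LPS and 15 to 24.1 in Selfox. Cd8a, a marker of cytotoxic T cells, fell by 0.68 ± 0.18 in Selfox with Control (adjusted p = 0.00685), and the granzyme Gzma fell by 0.8 ± 0.15 in Selfox with LPS (adjusted p = 0.000852). Of 8 B and plasma cell markers 5 fell in Selfox against Control and 4 against LPS, and 1 rose in LPS with Control, with summed levels of 12.1 to 15.5 CPM in Control, 16.8 to 31.4 in LPS and 7.21 to 15.4 in Selfox. The part of lymphocyte number in the falls of Ccr7, Cxcr3, Cxcr6 and Ccr6 was not tested.

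**Figure D4:**
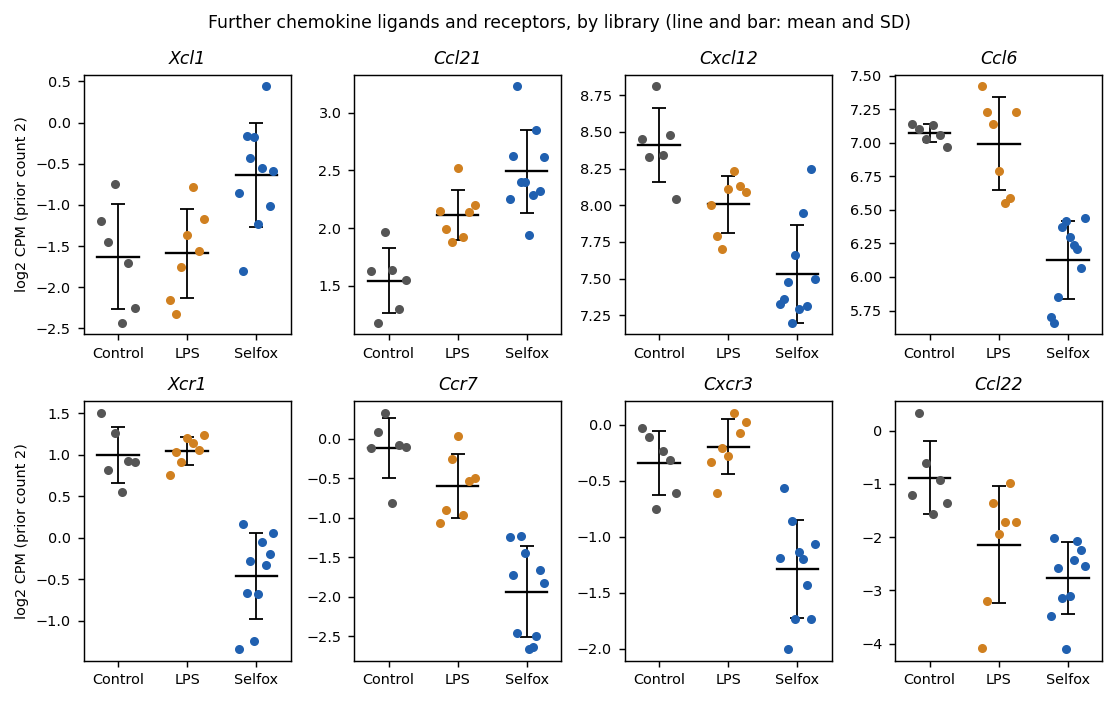
Log2 CPM with a prior count of 2 (y axis) of 8 further ligands and receptors by group (x axis); each point is 1 library, and the line and bar give the mean and SD over 6 Control, 7 LPS and 10 Selfox libraries. Selfox points for Ccl6, Xcr1 and Ccr7 lie below all others, while those for Xcl1 and Ccl21 are shifted up with overlap.

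Ccr1, a receptor of neutrophils and monocytes for Ccl3, Ccl5 and Ccl9, was the receptor that rose in Selfox with Control. It ran from 0.0553 to 0.596 CPM in Control (median 0.192), from 0.0826 to 0.333 in LPS (median 0.181) and from 0.34 to 1.82 in Selfox (median 0.716). All 10 Selfox libraries were above all LPS, as for 0.743% of all genes tested, and 7 of 10 were above all Control, with Selfox 3 the highest. Levels in LPS were low, and 4 LPS libraries reached the filter's level. The log2 fold change was 1.73 ± 0.43 in Selfox with Control (adjusted p = 0.00444) and 2.28 ± 0.40 in Selfox with LPS (adjusted p = 0.000523).

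Cxcr2, the neutrophil receptor for Cxcl1 and Cxcl2, had the largest log2 fold change among the 18 tested genes that were not called in Selfox with Control. It ran from 0 to 1.07 CPM in Control (median 0.227), from 0.11 to 0.389 in LPS (median 0.242) and from 0.0752 to 2.61 in Selfox (median 0.753). The groups overlapped, and the value was 1.5 ± 0.75 (adjusted p = 0.137, past the threshold without Control 46), or 1.92 ± 0.69 against LPS (adjusted p = 0.0648). Selfox 3, Selfox 8 (1.61 CPM), Selfox 5 (1.44 CPM), Selfox 4 (1.3 CPM) and Selfox 10 (1.22 CPM) were high, the same 5 libraries that held the highest neutrophil marker sums.

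Cxcr5, Ccr3, Ccr9 and Cx3cr1 were tested and not called in any comparison. Their log2 fold changes in Selfox with Control were -0.13 ± 0.19 for Cxcr5, 0.49 ± 0.52 for Ccr3, -0.05 ± 0.33 for Ccr9 and 0.44 ± 0.32 for Cx3cr1. Selfox 2 (0.027 CPM) lay apart below the other Selfox libraries for Ccr3.

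Of the 4 atypical receptors Ccrl2 rose and the other 3 were not called. Ccrl2, which binds the attractant chemerin and is induced on activated macrophages, neutrophils and endothelium, ran from 1.03 to 5.91 CPM in Control (median 1.59), from 0.784 to 1.67 in LPS (median 1.41) and from 2.53 to 26.4 in Selfox (median 10.9). Control 40 and Control 46 (4.98 CPM) stood apart from the other Control libraries, as they did for Cxcl2, Ccl3 and Ccl4. All 10 Selfox libraries were above all LPS, as for 0.743% of all genes tested, and 7 of 10 were above all Control. The log2 fold change of Ccrl2 was 2.34 ± 0.52 in Selfox with Control (adjusted p = 0.00203) and 3.46 ± 0.51 in Selfox with LPS (adjusted p = 0.000141). For Ackr3, given above with Cxcl12, LPS 6 (6.63 CPM) lay apart below the other LPS libraries. Ackr2, which removes inflammatory CC ligands, stood at 0.39 ± 0.30 in Selfox with Control (adjusted p = 0.347). Ackr4, which removes Ccl19 and Ccl21, stood at 0.15 ± 0.19 (adjusted p = 0.598).

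**Figure D5:**
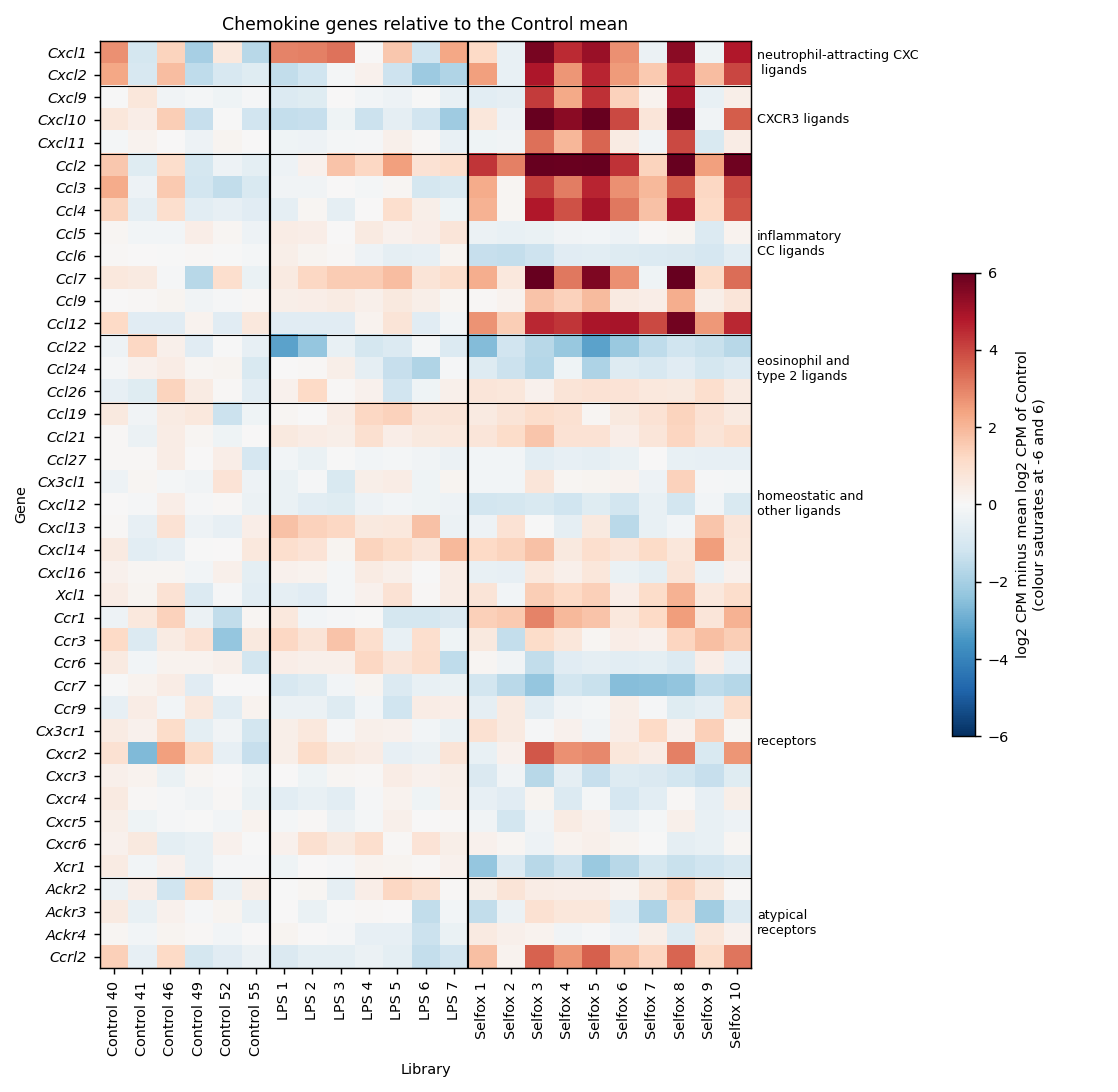
Log2 CPM of 41 of the 42 tested genes (rows, grouped by role) in 23 libraries (columns), each as the difference from the mean log2 CPM of Control; colour saturates at a difference of 6 in either direction. Selfox 3, 5 and 8 are the reddest columns in the rows of inflammatory ligands, while Xcr1, Ccr7 and Ccl6 are blue across all 10 Selfox columns.

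The remaining untested genes were at the edge of detection. Ccl20, the ligand of Ccr6, had 0 counts in all 13 Control and LPS libraries and 34 counts in Selfox, found in 5 of its 10 libraries with 12 each in Selfox 3 and Selfox 8. Ccl1 summed to 2 counts in Control, to 14 in LPS and to 44 in Selfox (18 of them from Selfox 8), and Ccl11 to 2, 6 and 33. Ccl17, which shares the receptor Ccr4 with Ccl22, summed to 17, 30 and 38 counts, and Ccr4 to 7, 15 and 6. The others had totals over 23 libraries of 57 counts for Ccl25, 44 for Ccl28, 117 for Ccr10, 46 for Ccr1l1, 42 for Ccr8 and 25 for Cxcl17. At this depth differences in these genes were not testable, and Control sums come from fewer and shallower libraries.

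Genes that act before and after the chemokines were taken from lists of known pathway members. Of 17 NF-kappaB and cytokine genes tested 10 rose and 0 fell in Selfox with Control, at a median log2 fold change of 1.176, and 10 rose in Selfox with LPS. The feedback inhibitors Tnfaip3 (4.06 ± 0.81, adjusted p = 0.000846) and Nfkbia (2.04 ± 0.42, adjusted p = 0.00109) rose in Selfox with Control, while the cytokines Il6 (5.51 ± 1.07, adjusted p = 0.0016) and Il1a (1.69 ± 0.29, adjusted p = 0.000578) rose against LPS. In LPS with Control 0 of 17 rose, and Tlr4, the LPS receptor, fell by 0.74 ± 0.22 (adjusted p = 0.025). The summed level was 1670 CPM in Selfox 8, 1620 in Selfox 5, 1490 in Selfox 3 and 988 in Selfox 10. Selfox 4 (865 CPM) and Selfox 6 (472 CPM) were above Control too. Control had 248 to 392 CPM, and Selfox 1 (397 CPM) was just above that range. Selfox 2, 7 and 9 had 300 to 327 CPM, inside it. Tnf and Il17a were too low to test.

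Interferon-gamma genes gave a mixed count. Of 12 tested 2 rose and 2 fell in Selfox with Control, and 4 rose and 2 fell in Selfox with LPS. The guanylate-binding protein Gbp5 rose by 2.19 ± 0.49 in Selfox with Control (adjusted p = 0.00217), while the receptor chain Ifngr1 fell by 0.43 ± 0.07 (adjusted p = 0.000202). Ifng itself was too low to test. The summed level reached 889 CPM in Selfox 8, 692 in Selfox 5 and 635 in Selfox 3. It was 468 CPM in Selfox 4, 335 in Selfox 10 and 290 in Selfox 6. Control had 208 to 256 CPM and LPS 185 to 223. Selfox 1 (188 CPM), Selfox 9 (181 CPM) and Selfox 2 (171 CPM) were below every Control library.

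Genes of the receptors' signalling chain went both ways. Of 33 tested 6 rose and 7 fell in Selfox with Control, with a median of -0.026, and 0 rose and 1 fell in LPS with Control, the receptor kinase Grk2 (-0.22 ± 0.07, adjusted p = 0.0269). The phospholipase Plcb2 of blood cells fell by 0.78 ± 0.16 in Selfox with Control (adjusted p = 0.000738). Of 14 genes that trim or display chemokines 4 rose and 2 fell in Selfox with Control. Ndst1, which makes the heparan sulphate that holds chemokines on endothelium, rose in Selfox with Control (0.8 ± 0.14, adjusted p = 0.000235) and in LPS with Control (0.72 ± 0.15, adjusted p = 0.0025). The protease Mmp14 fell in both (-0.75 ± 0.16, adjusted p = 0.00114, and -0.61 ± 0.17, adjusted p = 0.0189).

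Of 15 leukocyte adhesion genes 4 rose and 2 fell in Selfox with Control. Icam1, the endothelial ligand of leukocyte integrins, rose by 2.89 ± 0.68 (adjusted p = 0.00322), and Selplg, the leukocyte ligand of P-selectin, fell by 0.58 ± 0.14 (adjusted p = 0.00363). In Selfox with LPS Sele, the endothelial selectin, rose by 5.07 ± 1.23 (adjusted p = 0.00774). Against Control, 1 of the 15 passed in LPS, the junction protein Jam3 (0.59 ± 0.15, adjusted p = 0.0125). Chemokines that the name rule does not reach added nothing called: the platelet factor Pf4 stood at 0.26 ± 0.32 in Selfox with Control (adjusted p = 0.58), Ppbp was too low to test and Mif is listed at 0 in all libraries.

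Of 8 cholangiocyte markers 2 rose in Selfox with Control and 3 in LPS with Control, among them Epcam (0.83 ± 0.14, adjusted p = 0.000118, and 0.71 ± 0.14, adjusted p = 0.00214). Of 9 hepatocyte markers 3 rose and 4 fell in Selfox with Control, and 2 rose in LPS with Control. No chemokine gene was compared in level with another gene, since gene lengths were not used here.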

How the data were processed

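Members and gene lists were chosen with earlier results of these data known. The deposited table holds raw read counts per gene. Per the submitters' processing notes the authors used FastQC, Trim Galore, STAR 2.7.9a and featureCounts of Subread 2.0.3 to make these counts. Per the labels' protocols the libraries came from a stranded mRNA kit. The genome build, annotation, strand setting and treatment of reads with several matches were not given in the sources used here; antisense overlaps and near-identical copies are uncertain. Even numbers made up 66.1% to 74.9% of counts from 1 to 9, so counts divided by 2 were an alternative.

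Genes were filtered by filterByExpr (minimum count 10), scaled by TMM and fitted over all 3 groups with edgeR 4.0.16 in R 4.3.3 (robust quasi-likelihood, biological coefficient of variation 0.235). P-values were adjusted by Benjamini-Hochberg over 15079 genes, at a threshold of 0.05, for LPS against Control and Selfox against each of both. SEs were derived from the fold change and the F statistic. Log2 CPM used a prior count of 2. Steps were tested on simulated data. Depth was 31.9 to 79.2 M counts per library; floors of 3 counts cover counting error only.

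Alternatives were RLE factors, no filter or a minimum count of 50, DESeq2 1.42.0, limma 3.58.1 voom with sample weights, 2 groups alone, each library left out, the 5 late-clock libraries left out, thinning to equal depth, counts divided by 2, and a replicate block. With 1 exception, not reported here, every member called in a comparison is named; of those never called, up to 5 per comparison with the largest change; of other lists, up to 2 per comparison by adjusted p. Lists share genes. No batch is given in the labels. All 55 members matched RefSeq (GRCr8) by symbol; its coordinates are given for the printed sequences alone, since the build of the files is unknown.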

Additional observations from a re-analysis of the deposited data

Results flagged for a closer look

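In 5 of 126 groups of libraries 1 library stood apart from the others by Dixon's test, where chance flags about 1 in 20. Values are log2 CPM with a prior count of 2. Cxcl9 in Control 41 was 4.91, above the next Control library at 4.24. Ccl27 in Control 55 was -1, below the next at 0.01. Ackr3 in LPS 6 was 2.74, below the next at 3.83. Ccr6 in LPS 7 was -4.15, below the next at -2.34. Ccr3 in Selfox 2 was -4.1, below the next Selfox library at -2.59. The Ccr6 and Ccr3 values (0.025 and 0.027 CPM) are under the floor of 3 counts.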

How the results depend on the processing

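No call reversed in any setting. Of genes not called, 6 of 39 in LPS with Control, 3 of 18 in Selfox with Control and 5 of 20 in Selfox with LPS passed in at least 1 setting. Settings in which a gene was not tested were left out of its tally. All settings that tested the gene kept 16 of the 24 calls in Selfox with Control. They kept 12 of the 22 in Selfox with LPS, but 0 of the 3 in LPS with Control. With a minimum count of 50 some genes were no longer tested, and 13 were called higher and 7 lower in Selfox with Control. In LPS with Control the genes called higher (2) numbered 0 without the late-clock libraries and 1 at equal depth. Those called lower (1) numbered 2 with DESeq2, 3 with voom, 2 in the fit of 2 groups alone and 3 without the late-clock libraries.

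With 1 library left out the genes called numbered 0 to 3 higher and 0 to 3 lower in LPS with Control, 15 to 18 higher and 7 to 8 lower in Selfox with Control, and 12 to 15 higher and 6 to 9 lower in Selfox with LPS. In LPS with Control 0 were higher without Control 49, Control 52 or LPS 4, and 0 lower without Control 40, 41, 46 or 49, LPS 1 or LPS 5. Over all genes, calls in LPS with Control (2217) ran from 1409, without Control 49, to 2723. Calls in Selfox with LPS (2187) fell to 1434 without the late-clock libraries.

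LPS and Selfox share replicate numbers 1 to 7, which do not pair them: same-numbered libraries correlated by -0.059 to 0.16 in their deviations, 1 of 7 above 0.1, and 1 of 7 matched its own number best. With the replicate number as a block 9 genes were higher and 6 lower in Selfox with LPS (1259 calls over all genes), against 11 and 6 (1617 calls) in the same 14 libraries without the block. With the block the calls of Ccl7, Ccl9, Cxcl9, Cxcl11, Ccr6 and Cxcr6 ended. In the same 14 libraries without the block those of Ccl9, Ccr6, Cxcr6 and Xcl1 ended. The filter asked for 0.137 CPM in at least 6 libraries, which 13 of the 55 genes did not reach.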
